A study of Homo sapiens with 12 samples.

Results

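The transcripts of 10 transcription factors of blood stem cells and red cell precursors (GATA1, GATA2, KLF1, TAL1, NFE2, ZFPM1, LMO2, LYL1, BCL11A and MYB) were followed through 12 mRNA libraries. They were chosen by symbol, and all 10 had a row among the 19447 gene symbols of the count table. The libraries fell into 4 groups of 3. K562, a line from human chronic myeloid leukemia, carries the fusion kinase BCR-ABL, and K562+L is the same line given 6 µM lycorine, an alkaloid of Amaryllidaceae plants. K562/IM is a line derived from K562 by stepwise exposure to imatinib (IM), the inhibitor of BCR-ABL, and kept in 5 µM of it, and K562/IM+L is K562/IM given 6 µM lycorine. All 4 groups share the K562 origin, and the time of exposure before sequencing and the number of clones in K562/IM are not given in the sources used here. Nothing says that libraries of 1 group came from separate cultures, so that every p-value measures only the spread between these libraries, which may be technical.

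GATA1 and GATA2 are zinc finger factors that bind the same DNA word. During red cell formation GATA1 replaces GATA2 at many sites, a step known as the GATA switch, and ZFPM1 (FOG1) is the partner protein through which GATA1 works at many of them. TAL1 binds DNA with an E protein and is joined to GATA1 through the bridging proteins LMO2 and LDB1, and LYL1 is a close relative of TAL1 in stem cells. KLF1 and NFE2 act on globin and other red cell genes, BCL11A silences fetal globin, and MYB keeps progenitors dividing and falls as red cells mature. K562 is known as a line that can be driven towards red cell or megakaryocyte features.

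Total counts per library ran from 75093844 to 107344598. Levels are in CPM (counts per 1000000 after TMM scaling of the 12 libraries) unless stated to be per kilobase. The titles of the K562/IM+L libraries carry another group number than the one that the study's own plots use, so they are called the labelled libraries here. ABCB1, the drug efflux pump gene, stood at 1.68 to 1.86 CPM in K562, 3.83 to 5.14 in K562+L, 21.9 to 25.8 in K562/IM and 0.490 to 1.06 in the labelled libraries. All 8 red cell markers checked for K562 (among them fetal, embryonic and alpha globins and TFRC) were above 1 CPM in every group. Their summed level was 6995 to 9544 CPM in K562, 4424 to 5124 in K562+L, 3025 to 3229 in K562/IM and 38784 to 55802 in the labelled libraries. Of the markers of other lineages, the 5 of megakaryocytes summed to 6.17 to 8.11 CPM in K562 and 192 to 212 in K562/IM, mostly ITGA2B, with PF4 and GP9 at or near 0. The 3 T cell markers summed to 1.74 to 2.82 and 21.4 to 23.1 CPM in the same groups, nearly all of it CD3D. The 4 epithelial and fibroblast markers summed to 123 to 132 CPM in K562 and 65.6 to 71.3 in K562/IM, mostly EPCAM. Mean EPCAM stood at 128 and 46.2 CPM in these groups, COL1A1 at 0.484 and 4.28 and COL1A2 at 0.0164 and 17.1, with CDH1 near 0. The 3 monocyte markers summed to 109 to 115 and 162 to 171 CPM in the same groups, nearly all of it LYZ. The 2 granulocyte markers summed to at most 0.126 CPM and the 3 B cell markers to at most 2.60 in any library. In RNA of whole cultures, a change in the share of cells that express a gene and a change in the RNA per cell cannot be told apart.

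GATA1 was the most abundant of the 10 in K562 when levels were divided by transcript length. Its level per kilobase of the longest coding transcript was 153 CPM (126 to 176 over the 3 libraries), followed by KLF1 with 86.1, NFE2 with 70.6, LMO2 with 70.6, LYL1 with 63.4, MYB with 47.0, GATA2 with 34.4, TAL1 with 14.5 and ZFPM1 with 5.89. From KLF1 to TAL1 each pair of neighbours in this order overlapped between libraries, whereas GATA1 lay apart from KLF1 and TAL1 from ZFPM1. In K562/IM, GATA1 was first with 131 CPM per kilobase, followed by NFE2 with 76.2 and MYB with 69.5, and LMO2 stood at 12.5. In the labelled libraries the order was another one, with KLF1 at 215, NFE2 at 187, LMO2 at 183 and GATA1 at 167 CPM per kilobase in overlapping ranges. GATA2 with 10.8 and MYB with 7.14, which overlapped, were the lowest there but for BCL11A.

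GATA1 (chromosome X of GRCh38, 48786554 to 48794311) moved least among the expressed factors. The K562 libraries held 189, 236 and 263 CPM, the K562+L libraries 214, 224 and 179, the K562/IM libraries 195, 194 and 198, and the labelled libraries 262, 276 and 213. Only the labelled libraries and K562/IM were separate, with each labelled library above each K562/IM library. GATA2 (chromosome 3, 128479427 to 128493185) varied widely inside every group. It stood at 54.4, 149.7 and 143 CPM in K562 and at 102, 41.8 and 40.7 in K562+L. The K562/IM libraries held 85.4, 177 and 174 CPM, and the labelled libraries 44.9, 44.7 and 20.0. All 3 labelled libraries were below every K562 and K562/IM library, whereas K562+L overlapped K562. Within a group the highest GATA2 library was 2.07 to 2.75 times the lowest. Among 9319 genes with a mean over 10 CPM, 0.676% to 1.88% had a wider spread in the same group.

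The ratio of GATA1 to GATA2, each per kilobase, puts both on 1 scale in each library. It was 7.82, 3.55 and 4.14 in K562, 4.71, 12.03 and 9.92 in K562+L, 5.14, 2.46 and 2.56 in K562/IM, and 13.1, 13.9 and 24.0 in the labelled libraries. The labelled libraries were higher than all libraries of the other groups. On the log2 scale their mean ratio exceeded that of K562/IM by 2.36 and that of K562 by 1.75 (two-sided exact permutation test, p = 0.1 each, adjusted p = 0.2 over 4 comparisons). That p of 0.1 is the smallest that 3 libraries against 3 can give. K562+L and K562 differed by 0.76 (exact p = 0.2) and K562/IM and K562 by -0.61 (exact p = 0.3), in overlapping ranges. Since GATA1 changed little, the ratio followed GATA2 and carries its spread.

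**Figure D1:**
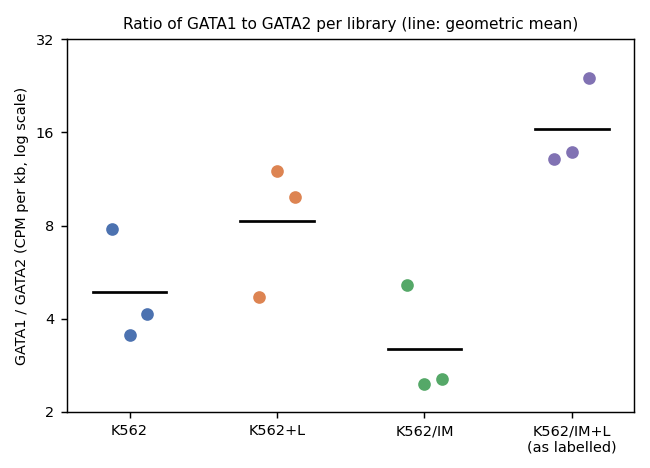
Ratio of GATA1 to GATA2 in CPM per kilobase for each of the 12 libraries, on a log axis, with 1 point per library and a line at the geometric mean of each group. The 3 labelled libraries lie at 13.1 to 24.0, above the 2.46 to 12.03 of the other 9.

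ZFPM1 (chromosome 16, 88453317 to 88537016), the GATA1 partner, had narrow ranges. It stood at 29.4, 33.3 and 32.4 CPM in K562, 29.6, 29.1 and 24.7 in K562+L and 34.2, 32.9 and 31.4 in K562/IM. The labelled libraries held 90.6, 89.7 and 77.9 CPM and lay apart from the other 3 groups, among which K562 overlapped both K562+L and K562/IM.

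LMO2 (chromosome 11, 33858576 to 33892289), the bridge of the TAL1 complex, had a different level in each of the 4 groups, with no overlap between any pair of them. It stood at 154, 154 and 178 CPM in K562, at 82.6, 92.7 and 82.5 in K562+L, at 31.3, 27.0 and 28.0 in K562/IM, and at 437, 453 and 367 in the labelled libraries. TAL1 (chromosome 1, 47216290 to 47232220) was as uneven as GATA2, with 66.6, 41.7 and 109.6 CPM in K562 and 67.4, 139 and 91.2 in K562+L. Its K562/IM libraries were closer to each other, with 57.7, 67.9 and 59.7 CPM, and its labelled libraries were far apart, with 109.4, 326 and 369. The highest labelled library was 3.37 times the lowest, a spread that 0.697% of the 9319 genes exceeded. Replicate 1 of the labelled libraries lay just under the highest K562 library, so that TAL1 did not separate these groups. LYL1 (chromosome 19, 13099033 to 13103161) stood at 75.2, 104.1 and 104.2 CPM in K562, 61.2, 61.2 and 45.6 in K562+L, 102, 101 and 96.7 in K562/IM and 141, 156 and 112 in the labelled libraries. K562+L lay below and the labelled libraries above every library of the 2 other groups.

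KLF1 (chromosome 19, 12884422 to 12887199), a factor that red cell genes depend on, held 109.7, 153 and 153 CPM in K562, 188, 186 and 147 in K562+L, and 87.4, 93.8 and 81.3 in K562/IM. The labelled libraries stood at 365, 379 and 293 CPM, above all others, and K562/IM below all others. NFE2 (chromosome 12, 54292111 to 54301121), the subunit that binds the globin control region with a small MAF protein, held 106, 124 and 158 CPM in K562, 72.5, 68.7 and 65.1 in K562+L, 142, 139.5 and 138 in K562/IM and 379, 363 and 285 in the labelled libraries. K562+L was the lowest group and the labelled libraries the highest, while K562 spanned K562/IM.

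MYB (chromosome 6, 135181315 to 135219173) ran the other way. It stood at 192, 174 and 152 CPM in K562, 150.3, 146 and 161 in K562+L, 246, 249 and 271 in K562/IM and 24.6, 25.7 and 28.4 in the labelled libraries. K562/IM was the highest group and the labelled libraries the lowest, by a wide margin, and K562+L overlapped K562. BCL11A (chromosome 2, 60450520 to 60555154), which in adult red cells holds fetal globin down, was listed at 0 in 9 of the 12 libraries. The other 3, 1 each of K562+L, K562/IM and the labelled group, held at most 8 counts or 0.0923 CPM. A floor of 3 counts is 0.0279 to 0.0420 CPM in these libraries, which takes each count as 1 fragment and allows for counting error only. If 1 fragment is worth about 4 counts, this floor lies below 1 fragment. BCL11A was therefore not tested, and no difference was detectable at this depth.

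**Figure D2:**
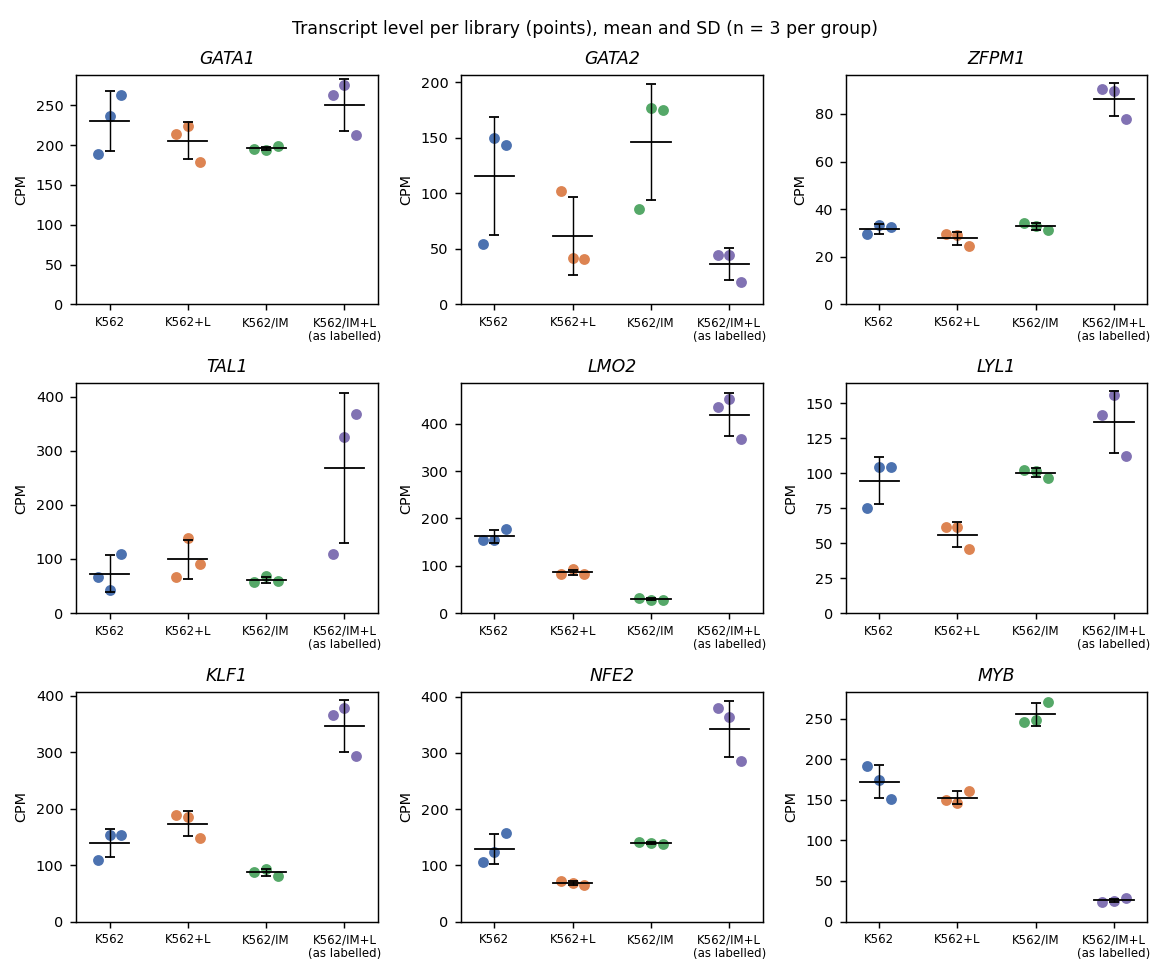
CPM of the 9 expressed factors in each library (points, in the order of the replicate numbers within a group), with the mean as a horizontal line and the SD as an error bar for 3 libraries per group. ZFPM1, LMO2, KLF1 and NFE2 are highest in the labelled libraries (K562/IM+L) and MYB is lowest there, at 24.6 to 28.4 CPM, and GATA2 and TAL1 show the widest spread inside groups.

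Lycorine in K562 went with lower LMO2, NFE2 and LYL1 and with no called rise among the factors. On the log2 scale LMO2 had a change of -0.91 (standard error 0.098, edgeR adjusted p = 6.84e-04), NFE2 one of -0.91 (standard error 0.14, edgeR adjusted p = 0.00301) and LYL1 one of -0.75 (standard error 0.16, edgeR adjusted p = 0.00999). These 3 were 33.3% of the 9 factors tested, against 37.3% of all 12927 genes in either direction and 19% of them lower. None passed a log2 fold change of 1, as did 2.38% of genes upward and 4.01% downward. The median over the 9 was -0.19, against -0.00012 over all genes. KLF1 had 0.32 (95% interval -0.031 to 0.68), GATA1 -0.16 (-0.48 to 0.16), ZFPM1 -0.19 (-0.43 to 0.050) and MYB -0.18 (-0.42 to 0.063), all with intervals that hold 0. GATA2 had -0.91 with a far wider interval, -1.96 to 0.14, and passed without replicate 1 of K562 (-1.26, edgeR adjusted p = 0.0209). TAL1 had 0.45 (-0.38 to 1.28). The 3 falling factors did not overlap between the groups, a property that 51.5% of genes tested shared.

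Around them, 11 of 28 partner and co-factor genes were called in K562+L, 7 higher and 4 lower, or 39.3% against 37.3% of all genes. The share called was 58.6% of red cell target genes, 42.9% of other regulators and 29.4% of stem cell, myeloid and lymphoid factors. The histone acetyltransferases EP300 and CREBBP rose by 1.09 and 1.02 on the log2 scale, and GFI1B, a repressor that GATA1 induces, by 0.52. The partner genes called were 7 without replicate 2 of K562 in place of 11. Of 29 red cell target genes tested, 14 were lower and 3 higher, with a median of -0.41. AHSP, the chaperone of alpha globin, fell by 2.16 on the log2 scale, HBB by 1.65 and the fetal globins HBG1 and HBG2 by 0.75 and 0.71, although reads of these near-identical genes may have been shared between them. That list had 11 called genes without replicate 2 of K562 or without replicate 1 of K562+L, against 17. Of 14 other red cell and fetal globin regulators 6 were higher and 0 lower, FOXO3 with 1.29 and LIN28B with 0.74. Of 17 stem cell, myeloid and lymphoid factors 3 were higher and 2 lower, with KLF4 at 0.88 and SPI1 at 0.73 against EGR1 at -0.97 and HHEX at -0.68. That count was 2 without replicate 1 of K562+L and 3 without replicate 2. None of 4 stem and progenitor marker genes tested was called by edgeR (0 by DESeq2, and 1, MSI2, at an unadjusted p under 0.05), and 1 was without replicate 1 or without replicate 3 of K562.

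K562/IM differed from K562 mainly in LMO2 among these factors, together with a lower KLF1 and a higher MYB. LMO2 changed by -2.49 on the log2 scale (standard error 0.098, edgeR adjusted p = 1.59e-06), a level 5.63 times lower. KLF1 fell with -0.67 (standard error 0.14, edgeR adjusted p = 0.00409) and MYB rose with 0.56 (standard error 0.099, edgeR adjusted p = 0.00192). The 3 called factors were 33.3% of the 9 tested, against 57.1% of 13406 genes, of which 30.1% were higher and 27.1% lower. LMO2 alone passed a log2 fold change of 1, which 5.29% of genes did downward and 13.9% upward. These 3 also had separate libraries in the 2 groups, as did 66.6% of all genes tested. The median over the factors was 0.049 and over all genes 0.042. ZFPM1 had 0.049 (95% interval -0.14 to 0.24), LYL1 0.084 (-0.21 to 0.38), NFE2 0.11 (-0.21 to 0.43) and GATA1 -0.23 (-0.50 to 0.043). GATA1 passed as lower without replicate 1 of K562 (-0.38, edgeR adjusted p = 0.00182) and NFE2 as higher without replicate 3 (0.27, edgeR adjusted p = 0.0335). GATA2 had 0.33 (-0.61 to 1.27) and TAL1 -0.23 (-0.93 to 0.46), too wide to place.

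In K562/IM against K562 the share called was 82.8% of red cell target genes and 81.25% of stem cell, myeloid and lymphoid factors. It was 80% of stem and progenitor marker genes and 50% each of partners and other regulators, against 57.1% of all genes. Of 29 red cell target genes 22 were lower and 2 higher in K562/IM, with a median of -0.93, and HBB with 0.0623 CPM and SLC4A1 with 0.122 CPM were near 0 there. The exceptions, embryonic HBE1 (2.48) and KEL (0.53), rose. Among 16 stem cell, myeloid and lymphoid factors 10 were higher and 3 lower, with a median of 0.67. SPI1 (PU.1), the myeloid factor known to oppose GATA1, rose from 2.59 ± 0.262 (SD, n = 3) to 33.7 ± 1.26 CPM (SD, n = 3), or by 3.70 on the log2 scale (standard error 0.11, edgeR adjusted p = 4.78e-07). RUNX1 rose by 0.69 and GFI1 by 1.88 on the log2 scale, and TCF7 fell by 0.74. The receptor KIT rose by 2.68, with 4 of 5 stem and progenitor marker genes tested higher, a count of 1 without replicate 2 of K562/IM and of 2 without replicate 2 or replicate 3 of K562 or replicate 1 of K562/IM. CD34 was listed at 0 in every library. SOX6, a partner of BCL11A in globin silencing, fell from 19.8 ± 5.79 (SD, n = 3) to 1.46 ± 0.301 CPM (SD, n = 3), and 7 of the 14 other regulators were lower and 0 higher. Of 28 partner genes 6 were higher and 8 lower, none past a log2 fold change of 1, with CBFA2T2 at 0.87 and the E protein gene TCF12 at 0.59, and LDB1 and TCF3 had 0.092 and -0.086 and were not called. The partner count of 14 was 8 without replicate 2 of K562 or replicate 1 of K562/IM, and 7 without replicate 3 of K562/IM.

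All 9 factors tested differed between the labelled libraries and K562/IM, 7 higher and 2 lower. LMO2 rose the most, by 3.89 on the log2 scale (standard error 0.11, edgeR adjusted p = 3.37e-07), a level 14.8 times higher. KLF1 had 2.01 (standard error 0.11, edgeR adjusted p = 5.36e-06), ZFPM1 1.41 (standard error 0.081, edgeR adjusted p = 6.18e-06) and NFE2 1.32 (standard error 0.11, edgeR adjusted p = 3.52e-05). MYB fell with -3.26 (standard error 0.092, edgeR adjusted p = 3.26e-07), a level 9.58 times lower, and GATA2 fell with -1.98 (standard error 0.38, edgeR adjusted p = 0.00255). TAL1 rose with 2.14 (standard error 0.41, edgeR adjusted p = 0.00239). LYL1 (0.47, edgeR adjusted p = 0.00902) and GATA1 (0.38, edgeR adjusted p = 0.0110) rose by less than the fold threshold. The 9 called were all of those tested, against 66.8% of 13727 genes, of which 33.2% were higher and 33.6% lower. Past a log2 fold change of 1 there were 5 higher and 2 lower factors, against 14.7% and 13.8% of genes. All 9 factors had separate libraries in the 2 groups, against 73.4% of genes. The median over the factors was 1.32, against -0.0069 over all genes. The count of 9 was the same in each of the 6 fits without 1 library.

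Beside these factors the summed red cell markers were 38784 to 55802 CPM in the labelled libraries and 3025 to 3229 in K562/IM, while the summed markers of megakaryocytes were 23.8 to 26.6 against 192 to 212, those of T cells 0.441 to 0.812 against 21.4 to 23.1, those of monocytes 75.4 to 80.5 against 162 to 171, and the epithelial and fibroblast ones 84.9 to 105 against 65.6 to 71.3. Of the last sum, mean EPCAM stood at 94.9 CPM in the labelled libraries against 46.2 in K562/IM. The collagen genes went the other way, with COL1A1 at 0.569 against 4.28 CPM and COL1A2 at 0.0294 against 17.1. The part of all these markers in the result was not tested. The share called against K562/IM was 96.7% of red cell target genes and 82.4% of stem cell, myeloid and lymphoid factors. It was 71.4% of other regulators and 100% of stem and progenitor marker genes, against 66.8% of all genes. Of 30 red cell target genes 29 were higher and 0 lower, with a median of 3.74. SLC4A1, the anion exchanger, went from 0.122 ± 0.0562 (SD, n = 3) to 986 ± 53.7 CPM (SD, n = 3). Stem cell, myeloid and lymphoid factors went mostly down, 11 lower and 3 higher of 17, with a median of -0.89. SPI1 fell to 1.98 ± 0.171 CPM (SD, n = 3), a log2 change of -4.06 (standard error 0.11, edgeR adjusted p = 2.86e-07), and GATA3 and RUNX1 fell by 3.05 and 0.89. GATA3 was low in both groups, with a mean of 0.874 CPM in K562/IM and 0.106 (0 to 12 counts) in the labelled libraries. Of the 3 higher ones, CEBPA rose by 1.32, from a mean of 0.699 to 1.72 CPM. RUNX3 was listed at 0 in K562/IM and at 24 to 28 counts here. KIT fell by 3.25 and ANGPT1 by 2.19 among 5 stem and progenitor marker genes tested, of which 3 were lower and 2 higher (3 called without replicate 1 of K562/IM). Of 14 other regulators 8 were higher and 2 lower. SOX6 and KLF13 rose by 3.32 and 2.01, and LIN28B and IGF2BP1, which hold the fetal state, fell by 1.47 and 0.62. Of 28 partners 6 were higher and 13 lower, 67.9% in all against 66.8% of all genes, with a median of -0.15. GFI1B rose by 1.90 and the E protein gene TCF3 by 0.57, while TCF12 fell by 0.77, CBFA2T3 by 0.55, KDM1A by 0.25 and the small MAF gene MAFK by 0.44. LDB1 had 0.38 and was not called.

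Set against K562 in place of K562/IM, the same libraries showed 6 factors higher and 2 lower. These 2 comparisons share the labelled libraries and are given side by side. LMO2 had 1.35 (standard error 0.12, edgeR adjusted p = 1.01e-04), KLF1 1.30 (standard error 0.17, edgeR adjusted p = 5.73e-04), NFE2 1.38 (standard error 0.18, edgeR adjusted p = 5.99e-04) and ZFPM1 1.42 (standard error 0.10, edgeR adjusted p = 4.11e-05). MYB fell with -2.74 (standard error 0.12, edgeR adjusted p = 8.53e-06). GATA1 had 0.10 (95% interval -0.26 to 0.47) and was not called. The 8 called were 88.9% of the factors tested, against 56% of 13307 genes, of which 28.2% were higher and 27.8% lower. Past a log2 fold change of 1, 5 factors were higher and 2 lower, against 14.9% and 8.91% of genes. Libraries were separate for 7 of the 9, against 63.6% of genes, and the median was 1.30 against 0.020 over all genes. The calls of TAL1, GATA2 and LYL1 were lost in some fits without 1 library, while the changes kept their sign. Over these omissions they were 1.57 to 2.28 for TAL1, -2.03 to -1.38 for GATA2 and 0.37 to 0.64 for LYL1. TAL1 (1.86, edgeR adjusted p = 0.0171) lost its call without replicate 2 of K562 (adjusted p = 0.0528) and without replicate 2 of the labelled libraries (0.0534), and GATA2 (-1.68, edgeR adjusted p = 0.0160) without replicate 2 of K562 (0.0519). LYL1 (0.51, edgeR adjusted p = 0.0410) lost it without replicate 1 or 2 of K562 (0.0967 and 0.0654) or of the labelled libraries (0.117 and 0.145). Without replicate 2 of K562 the count was 5. In the lists the share called was 93.3% of red cell target genes, 71.4% of partners and 64.3% of other regulators. It was 44.4% of stem cell, myeloid and lymphoid factors and 60% of stem and progenitor marker genes, against 56% of all genes. Of 30 red cell target genes 28 were higher and 0 lower (median 2.26), and of 28 partners 7 were higher and 13 lower, with GFI1B at 1.52, TCF3 at 0.44 and MAFF at -1.33. Of 18 stem cell, myeloid and lymphoid factors 4 were higher and 4 lower (5 called without replicate 1 of the labelled libraries), MECOM with -2.60, and SPI1 with -0.41 was not called. Of 14 other regulators 5 were higher and 4 lower, and of 5 stem and progenitor marker genes 2 were higher and 1 lower (1 called without replicate 2 of K562).

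**Figure D3:**
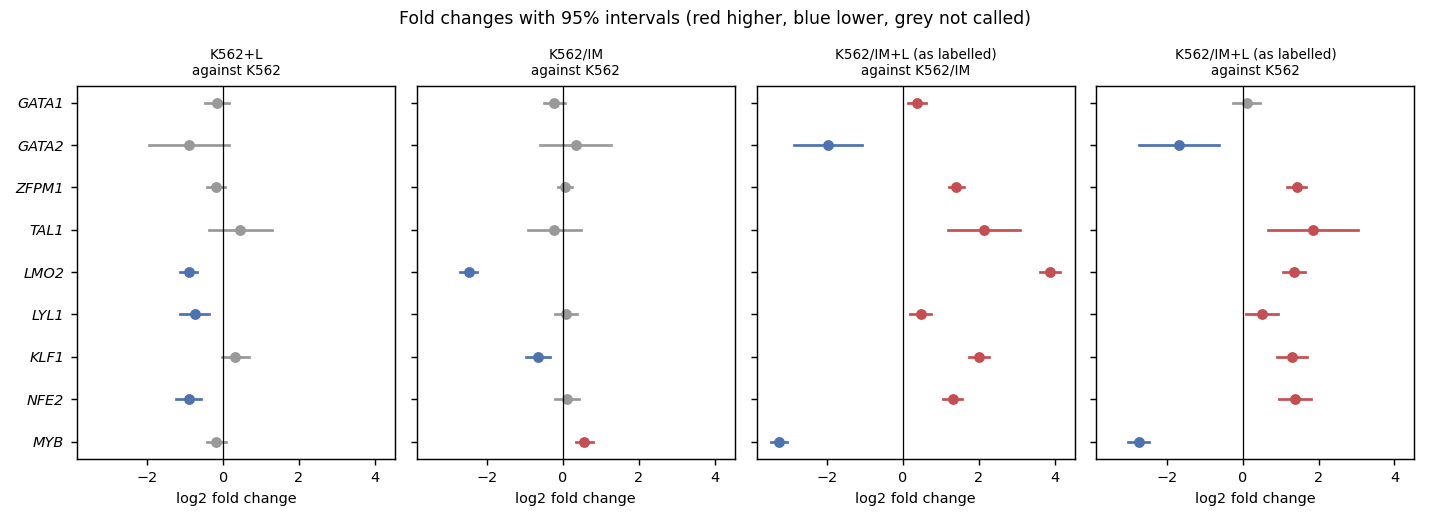
Log2 fold changes of the 9 expressed factors in the 4 comparisons, with 95% intervals, coloured by the call at an edgeR adjusted p under 0.05. LMO2 lies at -2.49 in the panel of K562/IM against K562 and at 3.89 in the next one, and the intervals of GATA2 and TAL1 are the widest.

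**Figure D4:**
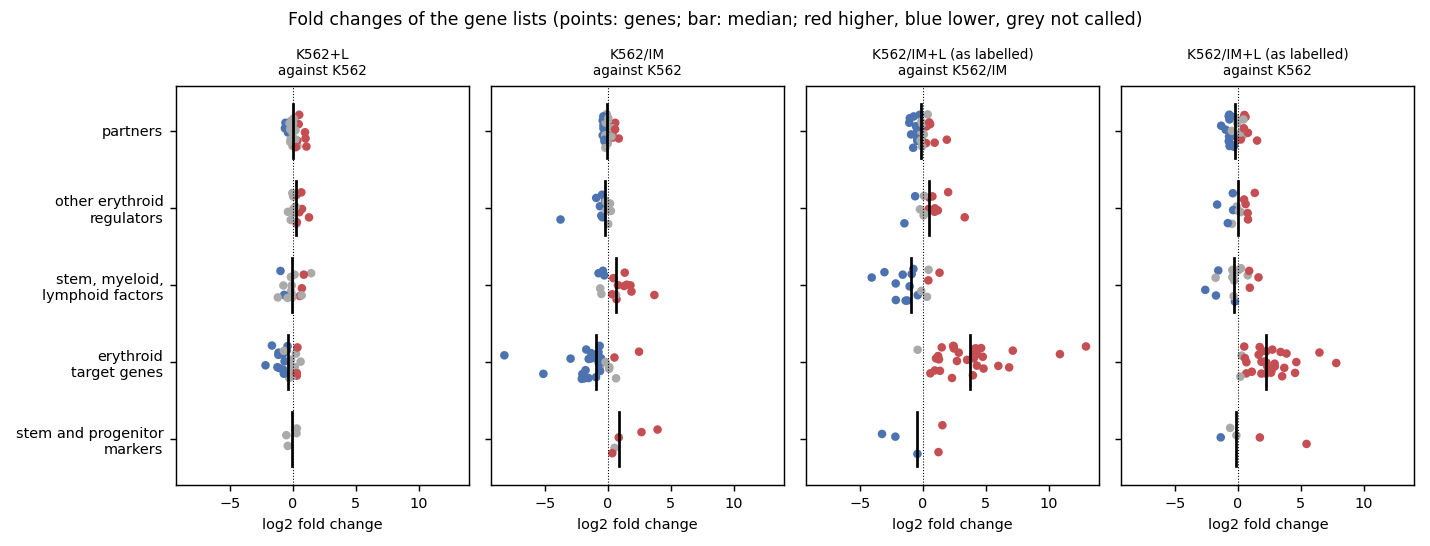
Log2 fold changes of the genes of 5 lists in the 4 comparisons, 1 point per gene tested, with the list's median as a bar (RUNX3, at 0 in a whole group, is left out of the 2 panels in which it was tested). The red cell target genes have medians of -0.41, -0.93, 3.74 and 2.26 from left to right, and the partner genes 0.053, -0.027, -0.15 and -0.26.

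The change on lycorine differed between the lines, as labelled, for 8 of the 9 factors. An interaction term over the 12 libraries, the change in K562/IM minus that in K562, gave the test. LMO2 fell in K562 and rose in the labelled libraries, a difference of 4.78 (standard error 0.15, edgeR adjusted p = 7.55e-10). NFE2 (2.21, standard error 0.20, edgeR adjusted p = 2.02e-06) and LYL1 (1.20, standard error 0.22, edgeR adjusted p = 5.95e-04) also had opposite directions, both called in each line. KLF1 (1.66, edgeR adjusted p = 3.09e-05) and ZFPM1 (1.58, edgeR adjusted p = 1.12e-06) differed by the rise in the labelled libraries, and MYB (-3.11, edgeR adjusted p = 7.44e-09) by the fall there. For TAL1 the difference was 1.67 (edgeR adjusted p = 0.0325) and for GATA1 0.51 (edgeR adjusted p = 0.0295). GATA2 had -1.09 (95% interval -2.57 to 0.39) and was not called. The 8 factors were 88.9% of those tested, against 61.7% of 13995 genes, and 7 were higher, against 29.9%, and 1 lower, against 31.7%.

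The calls of GATA1 and TAL1 in this interaction were near the threshold and were lost in several fits without 1 library. Over these omissions the difference kept its sign, with 0.40 to 0.65 for GATA1 and 1.24 to 2.04 for TAL1. GATA1 lost its call without replicate 2 or 3 of K562, replicate 3 of K562+L, replicate 1 or 2 of K562/IM, or replicate 1 or 2 of the labelled libraries (edgeR adjusted p from 0.0533 to 0.0928). TAL1 lost it without replicate 3 of K562, replicate 1 or 3 of K562+L, replicate 1 or 3 of K562/IM, or replicate 2 or 3 of the labelled libraries (edgeR adjusted p from 0.0607 to 0.0917). The count ran from 6 to 8 over the 12 fits.

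**Figure D5:**
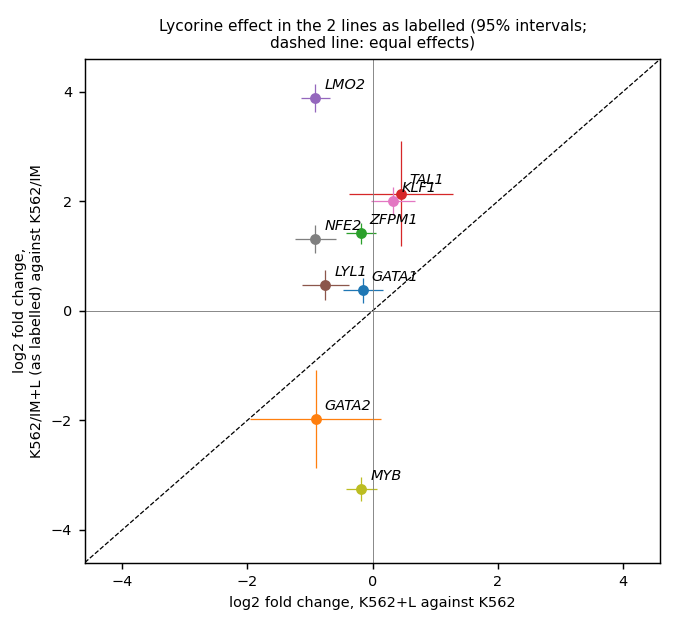
Log2 fold change of each factor in K562+L against K562 (horizontal) and in the labelled libraries (K562/IM+L) against K562/IM (vertical), with 95% intervals and a dashed line of equal changes. LMO2, NFE2 and LYL1 lie left of 0 and above 0, and MYB lies at -3.26 on the vertical axis and -0.18 on the horizontal one.

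Promoter sequence was examined because 7 factors (GATA2, KLF1, TAL1, NFE2, ZFPM1, LMO2 and MYB) changed by more than 1 on the log2 scale in both comparisons of the labelled libraries. RefSeq windows of 250 bases before 1 annotated start per gene (GRCh38.p14) held 5 of these 7, NFE2 and LMO2 being the others, and 8 of all 10 factors. The words searched on both strands were AGATAA and TGATAA for GATA factors, CAGATG for TAL1 with an E protein, CACCC for KLF factors, TGACTCA for NFE2 and AP-1, and TGTGGT for RUNX factors. TGATAA was added after the sequences had been seen. Words are in capitals below, in either orientation, 5′ to 3′ on the gene's strand. The 5 windows are chr3:128493202-128493451 (minus strand) for GATA2, chr19:12887202-12887451 (minus) for KLF1, chr1:47232336-47232585 (minus) for TAL1, chr16:88453030-88453279 (plus) for ZFPM1 and chr6:135181058-135181307 (plus) for MYB.
GATA2: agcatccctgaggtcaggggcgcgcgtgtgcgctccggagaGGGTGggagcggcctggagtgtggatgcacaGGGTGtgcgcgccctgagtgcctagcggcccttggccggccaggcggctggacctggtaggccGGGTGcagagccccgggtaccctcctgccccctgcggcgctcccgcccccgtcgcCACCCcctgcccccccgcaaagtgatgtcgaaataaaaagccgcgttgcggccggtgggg
KLF1: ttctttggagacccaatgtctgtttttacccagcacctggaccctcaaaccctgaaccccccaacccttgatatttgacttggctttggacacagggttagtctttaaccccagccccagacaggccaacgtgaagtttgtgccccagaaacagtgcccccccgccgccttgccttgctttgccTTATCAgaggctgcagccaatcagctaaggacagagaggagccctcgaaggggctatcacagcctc
TAL1: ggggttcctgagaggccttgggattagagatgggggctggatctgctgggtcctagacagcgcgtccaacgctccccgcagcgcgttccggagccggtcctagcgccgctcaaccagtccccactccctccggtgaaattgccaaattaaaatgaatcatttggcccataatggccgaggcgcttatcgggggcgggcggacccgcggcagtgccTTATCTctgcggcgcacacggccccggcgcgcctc
ZFPM1: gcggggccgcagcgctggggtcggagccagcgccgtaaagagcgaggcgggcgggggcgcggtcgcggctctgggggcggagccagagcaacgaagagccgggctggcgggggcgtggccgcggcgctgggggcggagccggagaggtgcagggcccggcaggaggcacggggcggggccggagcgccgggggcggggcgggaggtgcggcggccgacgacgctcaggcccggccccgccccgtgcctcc
MYB: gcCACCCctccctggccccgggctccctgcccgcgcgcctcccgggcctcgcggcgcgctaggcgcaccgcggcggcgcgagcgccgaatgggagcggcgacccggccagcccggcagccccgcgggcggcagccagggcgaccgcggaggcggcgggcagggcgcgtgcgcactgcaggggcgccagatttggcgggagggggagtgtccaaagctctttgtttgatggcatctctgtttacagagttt
A GATA word lay in the windows of KLF1, TAL1 and LYL1. AGATAA was in 1 of the 8 windows (12.5%) and in 6.78% of the 15096 promoters of genes in the table, and TGATAA in 2 of 8 (25%) and 4.88%. CACCC was in 5 of 8 (62.5%), 4 times each in GATA2 and GATA1, against 57.9% of all promoters. TGTGGT was in 1 of 8, that of BCL11A, against 8.98%. The BCL11A and LYL1 windows lie before an inner start, inside the gene positions given above, and the GATA1 window reaches into the gene. CAGATG and TGACTCA, which 9.78% and 3.17% of promoters hold, were not in these 8 windows, and ZFPM1 held none of the 6 words. KLF1, with TGATAA in its window, and ZFPM1, with no word, rose against K562 by 1.30 and 1.42 on the log2 scale. Any relation of these words to the changes was not tested.

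Genes whose 4 group means followed those of a factor most closely were found among 11657 genes with a mean over 1 CPM, as the root mean squared difference of centred log2 CPM. For MYB the nearest was PKM, the pyruvate kinase gene, with a difference of 0.046 and 332, 309 and 472 CPM in K562, K562+L and K562/IM and 51.1 in the labelled libraries. GATA2 lay nearest to SPN, a leukocyte surface glycoprotein gene, with 0.034, and within 0.089 of EGR1. KLF1 lay nearest to ZNF19 (0.025), TAL1 to TMEM63B (0.051), NFE2 to PPM1M (0.065), ZFPM1 to LOC101928120 (0.017) and LYL1 to BPHL (0.017). LMO2 had no neighbour as close, with FAAH2 at 0.16 and CRYAB at 0.27. These values rest on 4 groups and describe likeness only.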

How the data were processed

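Poly(A)-enriched RNA of 12 libraries (3 per group, grouped by the treatment label) was analysed. The authors deposited whole-number counts per gene symbol without normalization. The submitters' processing notes name FastQC, STAR, StringTie and DESeq2 on hg38, with no version, and the annotation, the counting settings and the use of strand are not given in the sources used here. Low counts were not spread evenly: among the 23289 counts of 1 to 25, 67.9% equalled a multiple of 4 or such a multiple plus 1, as 52% of the whole numbers in that range do. Antisense transcripts of GENCODE 29 overlap GATA2, TAL1, NFE2, ZFPM1, LMO2, BCL11A and MYB, and without strand their reads cannot be told apart from those of the factors.

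Each pair of groups was fitted on its 6 libraries, and the interaction on 12, with edgeR 4.0.16 in R 4.3.3 (filterByExpr with a minimum count of 10, TMM, quasi-likelihood test, Benjamini-Hochberg adjustment over all genes tested). A gene was called at an adjusted p under 0.05. Standard errors and 95% intervals were taken from the log2 fold change and the F statistic. On simulated counts with 200 genes changed by 1 on the log2 scale, the pairwise fits recovered 194 to 198 with 6 to 10 false calls, among 12828 to 13631 genes, and the interaction recovered 135 with 6 among 13683. The simulation gave every gene the same dispersion and changed no gene of low count. It therefore does not tell how well changes are recovered for factors of wide spread such as GATA2 and TAL1. Positions and transcript lengths came from GENCODE 29 (GRCh38). The 10 factors, the 5 lists (partners and co-factors, other red cell and fetal globin regulators, stem cell, myeloid and lymphoid factors, red cell target genes, and stem and progenitor marker genes) and the tests were chosen with earlier results of these data known. List genes named are the usual partners and lineage markers and, per list and comparison, up to 2 called genes in each direction with the largest change and separate libraries. A gene that this rule names is not reported here by itself. Groups of 3 were too small for a test for outlying libraries, and the labels name neither batch nor date. Alternatives covered DESeq2 1.42.0, normalization, filters, thresholds, the libraries fitted, the replicate block, counts divided by 4 and each library left out.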

Additional observations from a re-analysis of the deposited data

Results flagged for a closer look

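The change on lycorine differed between the lines, as labelled, by the interaction test for 8 factors. The difference (K562/IM minus K562, log2) was 4.78 for LMO2, 2.21 for NFE2, 1.67 for TAL1, 1.66 for KLF1, 1.58 for ZFPM1, 1.20 for LYL1, 0.51 for GATA1 and -3.11 for MYB. The calls of GATA1 and TAL1 were lost in several fits without 1 library and at an adjusted p under 0.01. A difference of this kind passed for 61.7% of all genes tested. The labelled libraries enter each value.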

How the results depend on the processing

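Under DESeq2, upper-quartile normalization, DESeq2 size factors, no filter, at least 10 counts in every library, all 12 libraries in one fit (pairs of groups only) and counts divided by 4, the number of factors called equalled the value in the report in each test. Adding a log2 fold change over 1 left 0 factors in K562+L and 1 in K562/IM, each against K562. An adjusted p under 0.01 left 5 in the labelled libraries against K562 and 6 in the interaction. Leaving out 1 library gave 5 to 8 in the labelled libraries against K562, 3 to 4 in K562+L and in K562/IM against K562, and 9 in every fit against K562/IM. The sign turned in K562/IM against K562 without replicate 1 of K562 for GATA2 (-0.040, range over single omissions up to 0.60), NFE2 (-0.049, up to 0.27), ZFPM1 (-0.034, up to 0.085) and LYL1 (-0.088, up to 0.16), without replicate 3 of K562 for TAL1 (0.18, down to -0.51), and in the labelled libraries against K562 without replicate 1 of K562 for GATA1 (-0.021, up to 0.21), none of them called with the sign turned. The cause was not tested.

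Over all genes the count called in K562+L against K562 was 4821, 3126 with the replicate block and 2871 to 5823 with 1 library left out, and 2268 at an adjusted p under 0.01. With the fold threshold it was 826 there, 2566 in K562/IM against K562 (7661 without it), 3917 and 3162 in the labelled libraries against K562/IM and K562 (9169 and 7446 without it), and 4720 for the interaction (8628 without it). Deviations from the group mean had correlations from -0.36 to 0.11 over 13995 genes between replicates of the same number. Between replicates of different number they ran from -0.27 to 0.36. Values centred on groups of 3 cannot decide whether libraries shared a culture or batch, so that a pairing is neither shown nor excluded. With the replicate block 3, 4, 9, 7 and 8 factors were called in the 5 tests, the pairwise ones first, with GATA2 passing in K562/IM against K562 (0.39, edgeR adjusted p = 0.0247), where replicate 1 was lowest in both groups, and LYL1 not passing in the labelled libraries against K562 (0.51, edgeR adjusted p = 0.0815). It changed no other call of a factor.

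With the union of exons as length, the K562 level per kilobase was 52.4 CPM for NFE2, 52.1 for LMO2, 31.4 for MYB, 30.3 for LYL1 and 5.19 for ZFPM1, so that MYB and LYL1 changed places. In K562/IM KLF1 (54.3) then came before MYB (46.5), GATA2 (32.7) before LYL1 (32.1) and TAL1 (10.8) before LMO2 (9.25). In the labelled libraries GATA1 moved up to the place after KLF1, and TAL1 (47.0) came before LYL1 (43.7). The ratio of GATA1 to GATA2 kept its direction in every fit without 1 library, with differences of 0.49 to 1.17 and -0.95 to -0.27 for K562+L and K562/IM against K562, and 2.08 to 2.70 and 1.47 to 2.09 for the labelled libraries against K562/IM and K562. If 1 fragment is worth about 4 counts, counting error is larger than the totals would give.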
